A study of Mus musculus with 8 samples.

Results

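Imprinted genes are transcribed mainly or only from the allele inherited from 1 parent, and 35 of them in the mouse were examined as a set in nephron progenitor cells that carried floxed or unfloxed Hdac1 and Hdac2, genes of a pair of histone deacetylases. The genes were taken from textbook lists of imprinted domains, 16 of them maternally expressed, 18 paternally expressed and 1, Gnas, expressed from either allele depending on the transcript. They lie in 14 domains. Array probes were assigned to 33 of the genes through the transcript accession of the probe and to H19 through the name that the files give its probes. Rian, a maternally expressed non-coding RNA of the Dlk1-Meg3 domain, had no probe matched. Rtl1, a paternally expressed retrotransposon-derived gene of the same domain, had 1 probe, whose signal exceeded background clearly on 0 of 4 mutant and on 2 of 4 wildtype arrays, so it was not tested. The remaining 33 genes were tested among 22662 genes of the array, and each of the 33 was well above background on all 8 arrays.

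RNA came from nephron progenitors of C57BL/6 mouse kidneys at embryonic day 15.5, sorted by flow cytometry for the enhanced green fluorescent protein (EGFP) of a Six2-Cre transgene that both groups carry. Mutant pools (Six2CreEGFP+; HDAC1&2 f/f, 4 arrays) have floxed alleles of both deacetylases, which Cre recombinase removes in Six2-expressing cells, and wildtype pools (Six2CreEGFP+; HDAC1&2 +/+, 4 arrays) have unfloxed alleles. Each pool was labelled with Cy5 and hybridised against Cy3-labelled RNA of wildtype pool 1. Each value here is thus a log2 ratio of a pool over wildtype pool 1. The wildtype pool 1 array holds that pool in both channels. Single genes still departed from 0 on it, such as Igf2 at 0.27 and Nap1l4 at -0.34, with a median of 0.02 over the 33 genes. Pools 3 and 4 of a genotype differed by no more than the Cy3 channel differed between arrays and were counted as 1 sample, which leaves 3 mutant and 3 wildtype samples. The number of kidneys in a pool was not given in the sources used here, so p-values measure the spread between pools.

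Imprints are set in the germ line as DNA methylation at control regions and are kept through embryonic life by proteins that bind the methylated copy. Within a domain the genes often behave reciprocally: a non-coding RNA or a boundary element acts on 1 parental chromosome and silences its neighbours there. Several imprinted genes act on fetal growth, among them Igf2, a growth factor, Igf2r, a receptor that removes it, and Grb10, an adaptor that restrains insulin and IGF signalling, and histone deacetylases belong to complexes that act on silenced chromatin. The arrays measure the total transcript of a gene and do not tell its parental alleles apart, and in bulk samples fewer cells of a type and less RNA per cell cannot be told apart.

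Hdac1 had log2 ratios of -0.07, -0.14 and -0.20 in the mutant samples, against 0.20, 0.14 and 0.15 in the wildtype samples. The groups did not overlap, and the difference was -0.30 ± 0.09 on the log2 scale (SE, 3 samples each, limma adjusted p = 0.476). All 3 probes of Hdac1 gave a negative difference. Hdac2 differed by -0.13, with a 95% interval from -0.46 to 0.20, and its groups overlapped. The sources used here do not place the probes relative to the deleted exons.

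None of the 33 imprinted genes passed limma's test at an adjusted p of 0.05 (0 of 33), against 10 of 22662 genes overall (0.0441%). Counting unadjusted p below 0.05, 4 of 33 imprinted genes lay below it, against 7.24% of all genes. With pool number as a block, 1 of 33 passed (0.15% of all genes in either direction, 0.0353% in the higher one), and 8 of 33 had an unadjusted p below 0.05 (12.7% of all genes). The gene that passed was Sfmbt2, a paternally expressed gene for a Polycomb-group protein. The 33 differences ran from -0.48 for Ndn to 0.95 for Sfmbt2, with a median of 0.02, and the median over all genes was 0.0017. In 8 of 33 imprinted genes (24.2%) the mutant and wildtype samples did not overlap, against 14.7% of all genes. In all 8 the mutant samples were the higher ones, which held for 8.72% of all genes, and 0 of 33 had the mutant samples below the wildtype samples (5.95% of all genes). The 33 genes are not independent of each other, since several share a domain. Of the 8 separated genes, several had dim probes. Mean log2 Cy5 signal was 7.70 for Usp29, 7.84 for Magel2, 8.19 for Sfmbt2 and 8.23 for Zim1. It was 10.4 for Airn, 12.3 for Meg3, 12.3 for Igf2r and 15.1 for Cd81.

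**Figure D1:**
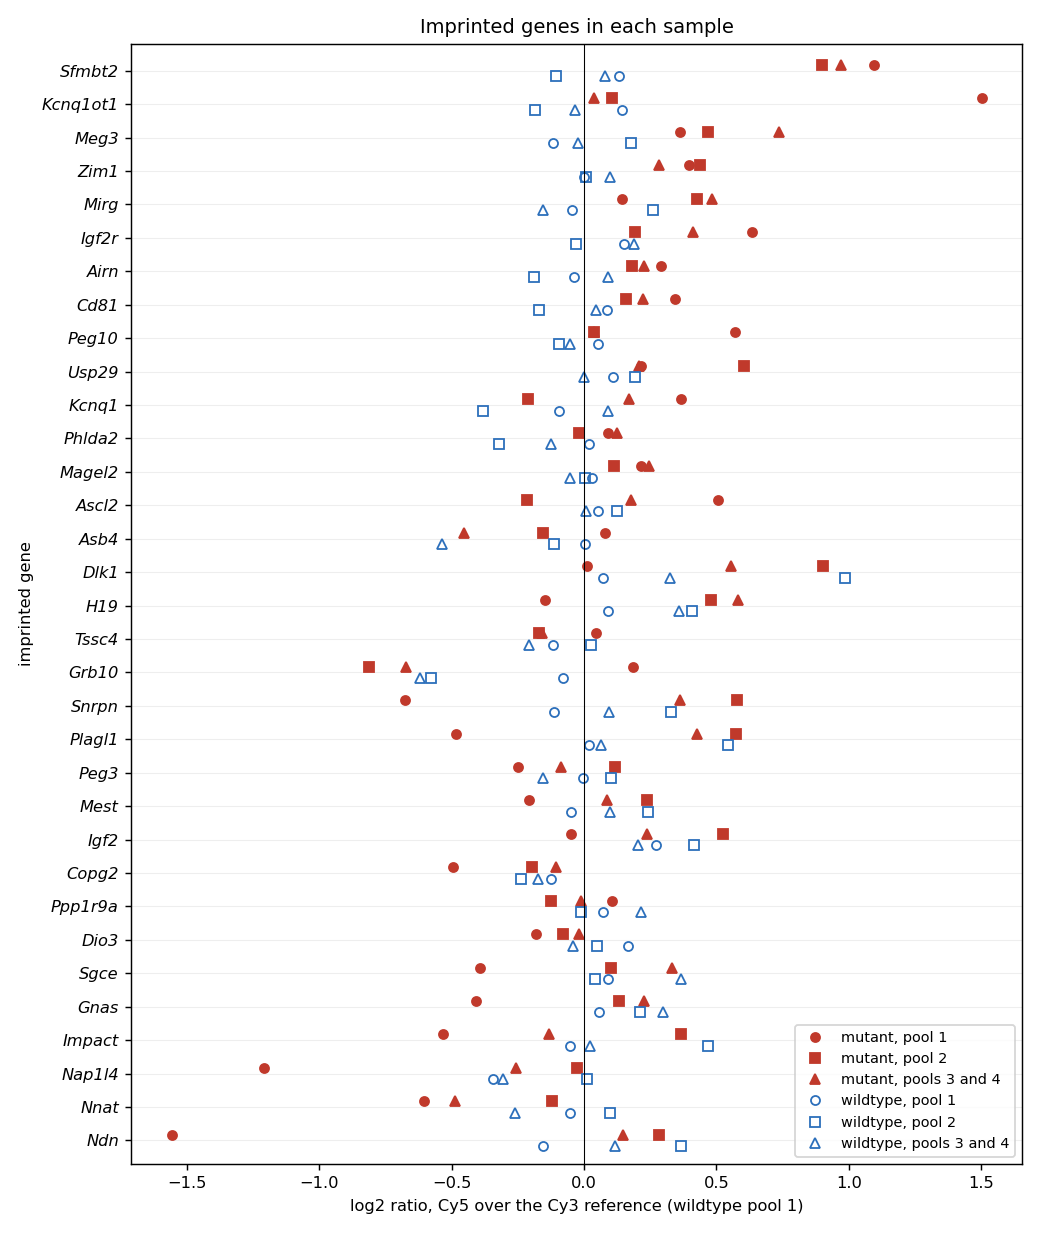
Log2 ratio of Cy5 over the Cy3 channel (wildtype pool 1) for each of the 33 tested imprinted genes, ordered by the mutant-minus-wildtype difference, with mutant samples as filled red symbols above wildtype samples as open blue symbols. Sfmbt2 at the top has all mutant samples at 0.90 or more and all wildtype samples at 0.13 or less, whereas most genes overlap, and the pool 1 circle of the mutants lies far from the other mutant symbols for Kcnq1ot1, Nap1l4 and Ndn.

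Sfmbt2 encodes a Polycomb-group protein that is expressed from the paternal allele in the mouse placenta and early embryo. Its log2 ratios were 1.09, 0.90 and 0.97 in the mutant samples, against 0.13, -0.11 and 0.08 in the wildtype samples. The lowest mutant sample was well above the highest wildtype sample, and the differences between samples of the same pool number were 0.96, 1.00 and 0.89. The means were 0.99 ± 0.10 in mutant and 0.04 ± 0.12 in wildtype samples (SD, n = 3 each), a 1.93-fold difference with a log2 size of 0.95 ± 0.11 (SE) and a 95% interval from 0.70 to 1.21. The limma adjusted p was 0.0788 without and 0.0429 with pool number as a block. The unadjusted limma p was not smaller with the block, at 4.8e-05 without and 6.2e-05 with it. A second probe of Sfmbt2, designed on another transcript, read 0.89, 0.70 and 0.56 in mutant and -0.07, -0.12 and -0.12 in wildtype samples, a difference of 0.82 ± 0.10 (SE). A further probe was not well above background on enough arrays to be kept, and it differed by 0.005. In the blocked fit the adjusted p of Sfmbt2 became 0.0849 without pool 1, 0.0879 without pool 2 and 0.374 without pools 3 and 4, with differences from 0.93 to 0.98.

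The letters before the annotated starts are shown for the 3 imprinted genes with the smallest unadjusted p (Sfmbt2, Meg3 and Zim1), because they are the upstream regions of the genes whose samples were furthest apart relative to their spread, and because methylated CG dinucleotides carry the imprints. Each run is the 250 bases before an annotated start on the strand of the gene, 5′ to 3′, from RefSeq on build GRCm38.p6, with CG in capitals. The array design was annotated on another build, so no coordinate of a probe is given. The first start of Sfmbt2 follows chr2:10370201-10370450 on the plus strand and has 8 CG, and the second follows chr2:10372186-10372435 on the plus strand and has 15 CG. Of 2 annotated Meg3 starts the one printed follows chr12:109540746-109540995 on the plus strand and has 10 CG, and that of Zim1 follows chr7:6696433-6696682 on the minus strand and has 14 CG. The other start of Meg3, after chr12:109545148-109545397 on the plus strand, has 0 CG and is not printed.
Sfmbt2 first start: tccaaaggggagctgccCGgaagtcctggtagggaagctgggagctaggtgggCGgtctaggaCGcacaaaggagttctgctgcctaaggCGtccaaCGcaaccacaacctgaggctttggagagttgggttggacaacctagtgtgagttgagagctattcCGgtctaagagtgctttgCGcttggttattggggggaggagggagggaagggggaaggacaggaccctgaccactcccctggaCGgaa
Sfmbt2 second start: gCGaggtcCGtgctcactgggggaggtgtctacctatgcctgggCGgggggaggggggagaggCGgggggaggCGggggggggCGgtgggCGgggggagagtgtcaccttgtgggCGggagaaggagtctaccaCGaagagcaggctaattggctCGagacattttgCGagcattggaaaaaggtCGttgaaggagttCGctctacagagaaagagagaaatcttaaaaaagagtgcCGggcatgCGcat
Meg3: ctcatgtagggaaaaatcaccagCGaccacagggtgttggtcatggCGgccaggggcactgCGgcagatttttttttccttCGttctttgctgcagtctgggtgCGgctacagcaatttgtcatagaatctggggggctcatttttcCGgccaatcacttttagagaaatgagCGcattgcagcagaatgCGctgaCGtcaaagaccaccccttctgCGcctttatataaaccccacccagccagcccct
Zim1: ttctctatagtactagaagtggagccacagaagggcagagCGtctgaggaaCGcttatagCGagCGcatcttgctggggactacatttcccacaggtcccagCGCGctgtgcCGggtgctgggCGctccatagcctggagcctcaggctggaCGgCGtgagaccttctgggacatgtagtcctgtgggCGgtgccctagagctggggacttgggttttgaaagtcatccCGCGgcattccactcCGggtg
The median over all 32851 annotated starts of the table was 6 CG, and over 44 starts of 28 imprinted genes in it was 10 CG. Starts on the chromosome of Impact were left out of the 44 but kept among all starts. The letters TGCCGC, which the imprint-keeping zinc finger protein ZFP57 binds when they are methylated, were searched on both strands of these windows. They were present in the windows of Meg3 and Zim1 printed above, and absent from both windows of Sfmbt2 and from the other window of Meg3. In all, 6 of 44 starts of imprinted genes held them (13.6%), against 2850 of 32851 starts (8.68%). A match describes the letters and does not mark a bound site.

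Among the maternally expressed genes, 15 were tested, and the mutant mean was the higher one in 11 and the lower one in 4, with a median difference of 0.09 on the log2 scale. In 4 of the 15 (Meg3, Zim1, Igf2r and Cd81) the mutant samples all lay above the wildtype samples. Among the paternally expressed genes, 17 were tested, and the mutant mean was higher in 7 and lower in 10, with a median of -0.04. Here too 4 genes (Sfmbt2, Airn, Magel2 and Usp29) had every mutant sample above every wildtype sample, and over all genes this held for 8.72%. Of all genes tested, 50.5% had the higher mean in mutant samples. Taken by pool number, the median mutant-minus-wildtype difference of the maternally expressed genes was 0.19 (pool 1), 0.07 (pool 2) and 0.17 (pools 3 and 4). That of the paternally expressed genes was -0.24, 0.06 and 0.07. Over all samples the paternal median became positive, at 0.10, without mutant pool 1 and likewise without wildtype pool 2. When arrays were centred on spike-in spots, the maternally expressed genes had a median of -0.08, so the sign of that median turned. The paternally expressed genes had a median of -0.21, beside -0.17 over all genes. This centring moves all genes of an array by the same amount, so the order of these medians could not change. Maternally expressed genes were not tested against paternally expressed ones. These classes come from textbook lists, and whether each gene is imprinted in these cells was not measured.

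**Figure D2:**
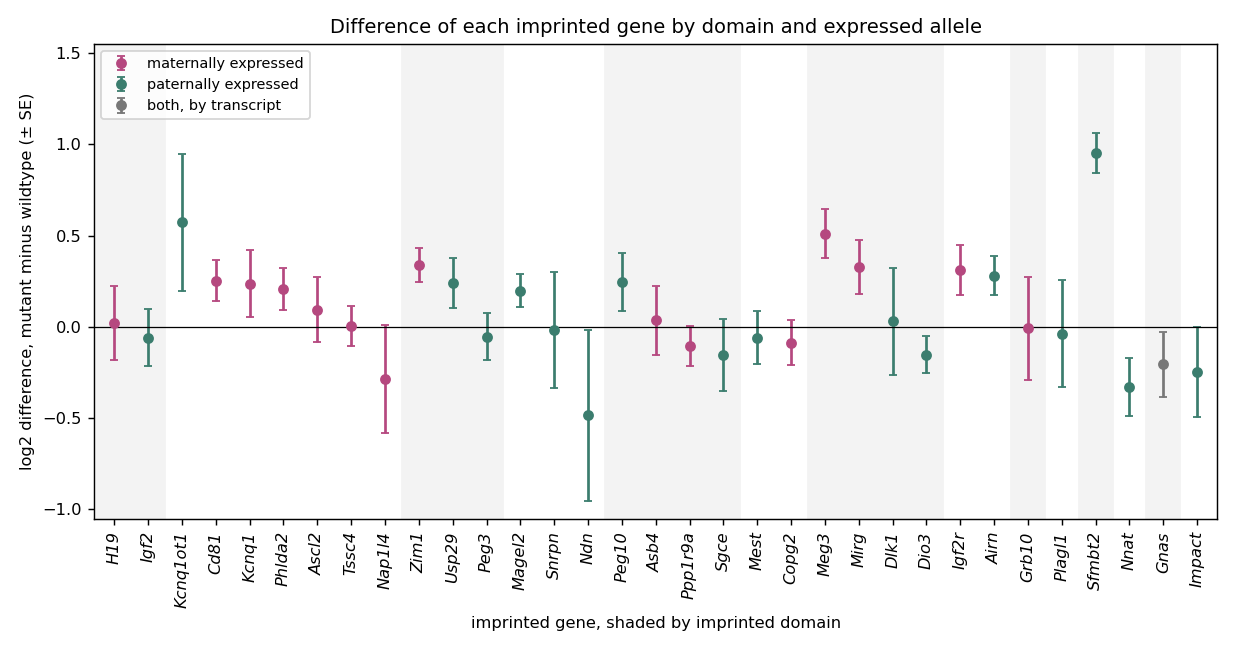
Log2 difference, mutant minus wildtype, with its standard error for each tested imprinted gene, grouped by imprinted domain (alternate shading) and coloured by the allele expressed. Sfmbt2 at 0.95 stands above the rest, Meg3 at 0.51 and Kcnq1ot1 at 0.57 come next, and the error bars of Kcnq1ot1 and Ndn are the widest.

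The Dlk1-Meg3 domain holds maternally expressed non-coding RNAs and paternally expressed protein-coding genes on the same chromosome segment. Meg3, the maternally expressed RNA, had log2 ratios of 0.36, 0.47 and 0.74 in mutant samples, against -0.12, 0.18 and -0.02 in wildtype samples. All mutant samples lay above all wildtype samples, with a difference of 0.51 ± 0.14 (SE, limma adjusted p = 0.410). The other kept probes of Meg3 differed by 0.25 and 0.02, and the groups overlapped on both. Mirg, a maternally expressed host transcript of microRNAs further along the segment, had 0.14, 0.43 and 0.48 in mutant and -0.04, 0.26 and -0.15 in wildtype samples, a difference of 0.33 ± 0.15 (SE), and its groups overlapped. Dlk1, a paternally expressed membrane protein related to Notch ligands, had 0.01, 0.90 and 0.56 in mutant and 0.07, 0.98 and 0.32 in wildtype samples. Its pools varied widely in both genotypes, and the difference was 0.03 ± 0.30 (SE). Dio3, a paternally expressed deiodinase that inactivates thyroid hormones, differed by -0.15. Set within each sample, Meg3 minus Dlk1 averaged 0.03 in mutant and -0.45 in wildtype samples, and the pool-number differences of this quantity were 0.54, 0.37 and 0.53. This quantity uses the brightest probe of each gene, was chosen after the values were seen and has no test. Differences of the kept probes ran from 0.02 to 0.51 for Meg3 and from 0.03 to 0.11 for Dlk1. The size of the quantity therefore depends on the probes used.

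The Peg3 domain holds the paternally expressed zinc finger gene Peg3 and its neighbours. Zim1, a maternally expressed zinc finger gene, had 0.40, 0.44 and 0.28 in mutant samples, against 0.00, 0.01 and 0.10 in wildtype samples. The groups did not overlap, and the difference was 0.34 ± 0.09 (SE, limma adjusted p = 0.434). Its other probe differed by 0.24. Usp29, a paternally expressed gene related to ubiquitin-specific proteases, had 0.22, 0.60 and 0.21 in mutant and 0.11, 0.19 and 0.00 in wildtype samples, which were close to one another without overlap. Peg3 had -0.25, 0.12 and -0.09 in mutant and 0.00, 0.10 and -0.16 in wildtype samples, with a difference of -0.05 ± 0.13 (SE) and overlapping groups. The other kept probe of Peg3 differed by 0.24, on the other side of 0 from the brightest one and of the same size as the second probe of Zim1, so the pair is not set against each other here.

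The Igf2r domain pairs a maternally expressed receptor gene with Airn, a paternally expressed antisense RNA known to silence Igf2r on the paternal chromosome. Igf2r had 0.63, 0.19 and 0.41 in mutant samples, against 0.15, -0.03 and 0.19 in wildtype samples, a difference of 0.31 ± 0.14 (SE, limma adjusted p = 0.715). Airn had 0.29, 0.18 and 0.23 in mutant samples, against -0.04, -0.19 and 0.09 in wildtype samples, a difference of 0.28 ± 0.11 (SE, limma adjusted p = 0.632). A second kept probe of Airn differed by 0.11. Both genes of the pair thus had the higher mean in mutant samples, and Igf2r minus Airn averaged 0.18 in mutant and 0.15 in wildtype samples. By pool number, the mutant-minus-wildtype differences of Igf2r minus Airn were 0.15, -0.15 and 0.09. With the arrays of pools 3 and 4 taken singly, the lowest mutant array of Igf2r and the highest wildtype array were nearly equal, at 0.19 and 0.20.

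The Kcnq1 domain is silenced on the paternal chromosome by the antisense RNA Kcnq1ot1. Its brightest probe read 1.50, 0.10 and 0.04 in mutant samples, against 0.14, -0.18 and -0.04 in wildtype samples, so the difference of 0.57 ± 0.38 (SE) came from mutant pool 1 and was 0.10 without that sample. A second probe of Kcnq1ot1 read 0.006 in mutant pool 1 and differed by -0.04. The files name 5 further probes KCNQ1ot1 without an accession, which were not used for the gene. The single one of them kept read 0.42, -0.23 and -0.21 in mutant and -0.11, -0.27 and -0.25 in wildtype samples (difference 0.20). Cd81, a maternally expressed tetraspanin gene of the domain, had 0.34, 0.16 and 0.22 in mutant samples, against 0.09, -0.17 and 0.05 in wildtype samples. The groups did not overlap, with a difference of 0.25 ± 0.11 (SE, limma adjusted p = 0.712). The maternally expressed genes Kcnq1 (a potassium channel subunit), Phlda2 (a pleckstrin homology domain protein of the placenta), Ascl2 (a basic helix-loop-helix factor) and Tssc4 differed by 0.24, 0.21, 0.09 and 0.005, and Nap1l4, a histone chaperone gene, by -0.29. Nap1l4 read -1.21 in mutant pool 1, against -0.03 and -0.26 in the other mutant samples.

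**Figure D3:**
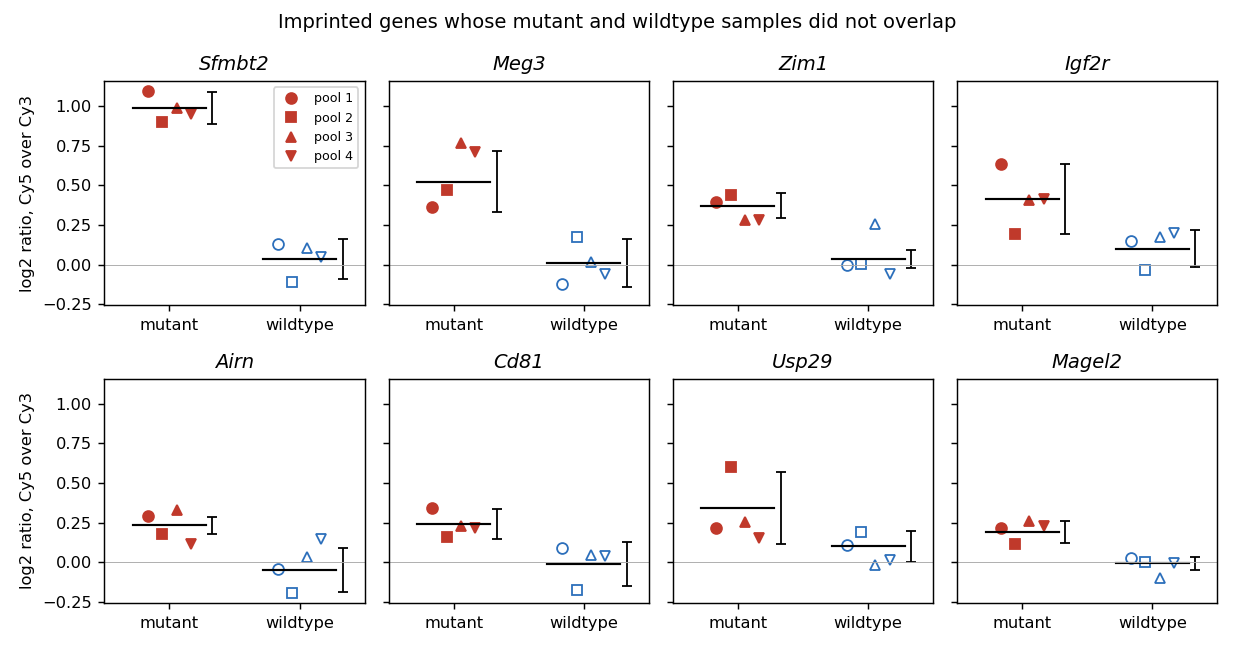
Log2 ratio of Cy5 over Cy3 on each array for the 8 imprinted genes whose mutant samples all lay above the wildtype samples, with mutant left and wildtype right; symbols mark pools, the line is the mean and the bar the SD over 3 samples (pools 3 and 4 averaged). Sfmbt2 leaves a wide gap between the genotypes, and for Airn, Igf2r and Usp29 single arrays of the genotypes overlap.

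The maternally expressed RNA H19 and the paternally expressed growth factor gene Igf2 share enhancers and a control region. H19 had -0.15, 0.48 and 0.58 in mutant samples, against 0.09, 0.41 and 0.36 in wildtype samples, a difference of 0.02 with a 95% interval from -0.46 to 0.50. Its other 4 probes differed by -0.04 to -0.19. Igf2 had -0.05, 0.52 and 0.24 in mutant samples, against 0.27, 0.41 and 0.20 in wildtype samples, a difference of -0.06 with an interval from -0.43 to 0.31. In both genes mutant pool 1 was the lowest mutant sample and the groups overlapped. H19 minus Igf2 averaged 0.07 in mutant and -0.01 in wildtype samples. Grb10 had 0.18, -0.81 and -0.67 in mutant samples, against -0.08, -0.58 and -0.62 in wildtype samples, so pool 1 was the highest in both genotypes. Plagl1, a paternally expressed zinc finger factor that acts on other imprinted genes, had -0.49, 0.57 and 0.43 in mutant samples, against 0.02, 0.54 and 0.06 in wildtype samples, a difference of -0.04 ± 0.29 (SE). Mest, a paternally expressed gene related to hydrolases, had -0.21, 0.24 and 0.09 in mutant samples, against -0.05, 0.24 and 0.10 in wildtype samples. On these probes the mutant and wildtype samples of Grb10, Plagl1 and Mest overlapped. Differences of the kept probes ran from -0.04 to 0.32 for Plagl1 (4 probes) and from -0.28 to 0.08 for Mest (3 probes). The maternally expressed neighbour of Mest, Copg2, a coatomer subunit gene, differed by -0.09.

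The genes of the Snrpn domain examined here are paternally expressed, and 2 of them, Ndn and Magel2, belong to the MAGE family. Ndn had -1.56, 0.28 and 0.15 in mutant samples, against -0.15, 0.37 and 0.12 in wildtype samples. Mutant pool 1 alone was low, and the difference of -0.48 ± 0.47 (SE) was 0.11 without it. Magel2 had 0.22, 0.11 and 0.25 in mutant samples, against 0.03, 0.005 and -0.05 in wildtype samples, which did not overlap (difference 0.20 ± 0.09, SE, limma adjusted p = 0.732). Snrpn, which encodes a splicing protein, had -0.68, 0.58 and 0.36 in mutant samples, against -0.11, 0.33 and 0.10 in wildtype samples. Gnas, the gene of the stimulatory G protein subunit, had -0.41, 0.13 and 0.23 in mutant samples, against 0.06, 0.21 and 0.30 in wildtype samples. Its difference was -0.21 ± 0.18 (SE) on the brightest probe and 0.24 on a probe of another transcript.

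On the brightest probe of each gene, the other members had differences between -0.33 and 0.25 with overlapping groups. Nnat, a paternally expressed proteolipid gene, differed by -0.33, and the mutant sample was the lower one at all 3 pool numbers. The other kept probe of Nnat differed by -0.51. Peg10, a paternally expressed retrotransposon-derived gene needed in the placenta, differed by 0.25, and its neighbours Sgce, Ppp1r9a and Asb4 by -0.15, -0.10 and 0.04. Impact, a paternally expressed regulator of translation, differed by -0.25. Of 19 members with more than 1 kept probe, 10 had the same sign on all of them and 9 did not, Gnas, H19, Kcnq1ot1, Mest, Peg3 and Plagl1 among the 9.

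Pools of a genotype also differed among themselves. The median SD over pools of the 33 genes was 0.25 in mutant and 0.14 in wildtype samples, against 0.17 and 0.12 over all genes. Mutant pool 2 differed from mutant pool 1 by a median absolute log2 value of 0.443 for the imprinted genes and 0.262 for all genes, and wildtype pool 2 from wildtype pool 1 by 0.180 and 0.157. Dlk1 and Plagl1 were lowest in pool 1 of both genotypes and Grb10 was highest there, as the plot by pool number shows. The spread of log2 ratios between probes of the same gene on the mutant pool 1 array had a median SD of 0.245 over 3916 genes, against 0.0826 to 0.142 on the other arrays. Its part in the low values of Ndn, Nap1l4 and Snrpn in that pool was not tested.

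**Figure D4:**
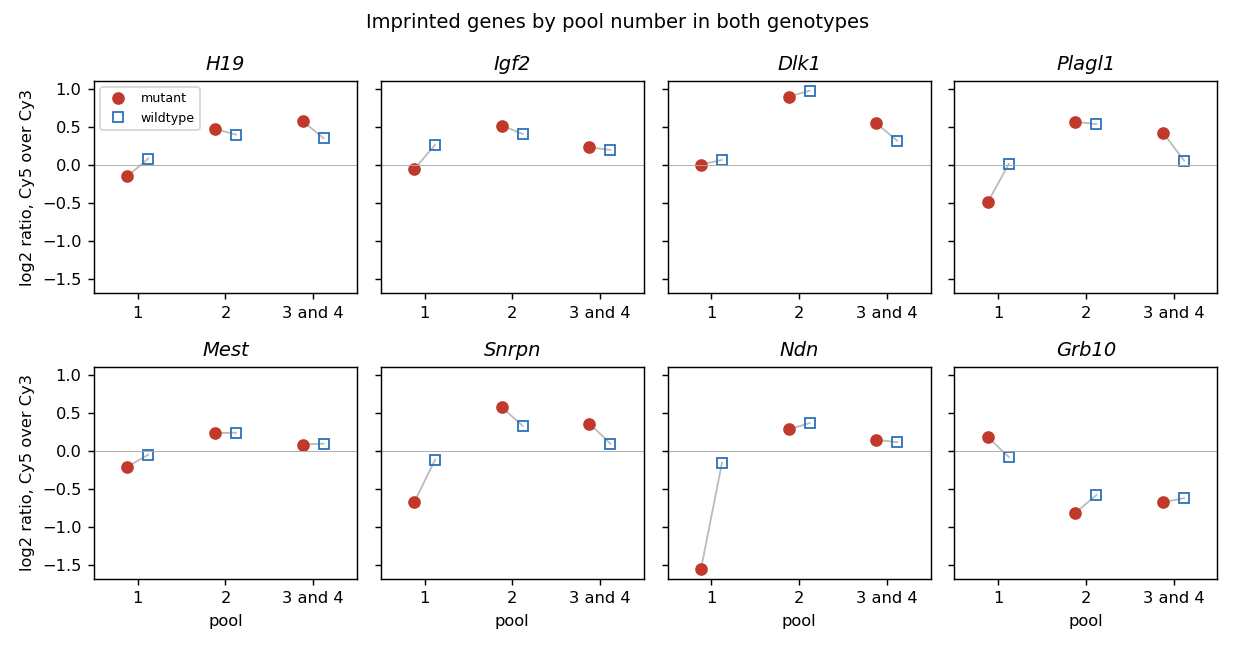
Log2 ratio of Cy5 over Cy3 for 8 imprinted genes at each pool number, with mutant samples as red circles left of wildtype samples as blue squares and a grey line joining samples of the same number. In Dlk1 and Grb10 the genotypes move together over the pool numbers, and mutant pool 1 stands apart at -1.56 for Ndn.

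Marker genes of the sorted cells and of other kidney cells were read on the same arrays. Of 12 nephron progenitor markers, 10 had the lower mean in mutant samples (median difference -0.30) and 1, Cited1, passed limma's test, and their mean relative level ran from 0.805 to 0.950 in mutant and 1.05 to 1.14 in wildtype samples. Of 12 interstitial stroma markers, 11 had the higher mean in mutant samples (median 0.24), with 1.11 to 1.39 in mutant and 0.965 to 1.11 in wildtype samples. The medians were 0.15 for 11 endothelial, 0.10 for 12 ureteric bud, 0.05 for 9 erythroid and 0.01 for 7 macrophage markers, and -0.95 for 9 proximal tubule markers, whose mean relative level ran from 0.399 to 0.797 in mutant and 0.526 to 1.76 in wildtype samples. With pool number as a block, 7 of these 9 had an unadjusted p below 0.05 (2 of 9 without it, against 12.7% and 7.24% of all genes), and 1, Pdzk1, a scaffold protein of the tubule brush border, passed. Its mutant-minus-wildtype differences by pool number were -1.59, -1.50 and -1.31, and its limma adjusted p was 0.0313 with and 0.775 without the block. By unadjusted limma p below 0.05 with the block, 8 of 12 progenitor, 6 of 12 stroma and 4 of 11 endothelial markers counted. So did 4 of 12 ureteric bud, 1 of 9 erythroid and 1 of 7 macrophage markers. Without the block these counts were 4, 3, 0, 3, 0 and 0, in the same order. All 12 progenitor and all 12 stroma markers were well above background on every array. This held for only 6 of 9 proximal tubule and 8 of 9 erythroid markers. The part of these shifts in the values of the imprinted genes was not tested. All arrays lay on 1 slide, the mutant pools in one row and the wildtype pools in the other, so slide row and genotype cannot be told apart.

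Related genes were read from the same fit. Of 40 further imprinted genes 33 were tested, and 0 passed limma's test with or without the block. Their median difference was 0.09, and 3 of 33 had an unadjusted p below 0.05, against 7.24% of all genes. Those 3 were Atp10a, a phospholipid flippase gene, Dhcr7, which catalyses a late step of cholesterol synthesis, and Ddc, an aromatic amino acid decarboxylase gene. Atp10a had -0.73, -0.58 and -0.52 in mutant samples, against -0.11, -0.09 and -0.10 in wildtype samples, a tight and separate pair of groups (difference -0.51 ± 0.10, SE, limma adjusted p = 0.226). Dhcr7 differed by -0.30 ± 0.11 and Ddc by 0.60 ± 0.25 (SE). Of 20 factors that set or keep imprints 18 were tested, and 0 passed in limma and 0 had an unadjusted p below 0.05, with a median of 0.001. The smallest p among them belonged to Ehmt1, a histone methyltransferase gene (0.20 ± 0.10, SE), Dnmt3l, a cofactor of de novo DNA methylation (0.18 ± 0.10, SE), and Trim28, the corepressor recruited by zinc finger proteins such as ZFP57 (-0.27 ± 0.15, SE). Of 18 genes of the IGF axis 16 were tested, and 0 passed in limma, with or without the block, and 0 had an unadjusted p below 0.05 (2 of 16 with the block, against 12.7% of all genes). Igfbp1, Pappa2 and Igfbp6, which bind IGFs or cleave their binding proteins, differed by -0.69 ± 0.36, -0.37 ± 0.20 and 0.20 ± 0.11 (SE), and the groups overlapped in each. For Igfbp1 the mutant sample was the lower one at every pool number, by -0.69, -0.30 and -1.09, and with the block its limma adjusted p was 0.213 (block SE 0.16).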

How the data were processed

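Each array compared Cy5-labelled RNA of a pool (0.5 µg of total RNA) with Cy3-labelled RNA of wildtype pool 1. The deposited scanner files hold spot intensity on a linear scale, read out with Agilent Feature Extraction 10.7.3.1 per the submitters' processing notes. The series' deposited table of log10 ratios (Cy5 over Cy3) differed from the scanner files' own log ratios by at most 0.005. Median signals went through normexp background correction with an offset of 50 and then loess within each array (limma 3.58.1, R 4.3.3), with control and outlier spots at weight 0. Spots of a probe were averaged. A probe was kept where Cy5 was well above background on 3 or more of a genotype's 4 arrays, and the brightest Cy5 probe stood for each gene. Values are relative to the Cy3 channel, so levels were not compared between genes. The array number limits the precision. In Cy5, 7 arrays had 28150 to 33982 probes above that limit and the array of wildtype pool 2 had 48627.

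Differences, mutant minus wildtype, were tested with limma over 22662 genes (lmFit and eBayes, two-sided) with Benjamini-Hochberg adjustment, on 3 and 3 samples. An exact permutation test of 3 against 3 cannot go below 0.1. Samples of the same pool number deviated together (correlations of the deviations from the group means 0.495, 0.543 and 0.527 for pools 1, 2 and 3 with 4), so fits with pool number as a block were computed too. Pools 3 and 4 were averaged because their median absolute deviation was 0.0604 in mutant and 0.0565 in wildtype. Among array pairs without wildtype pool 2, it was 0.0455 to 0.0784 between Cy3 channels (21 pairs). Between the other Cy5 channels without that pool it was 0.110 to 0.355 (19 pairs). Pairs with wildtype pool 2 reached 0.0999 in Cy3 and 0.401 in Cy5. The labels call the pools biological replicates. The fit was tested on simulated data. Alternatives covered the signal, background correction, normalization, filter, probe choice, samples and block.

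The members and gene lists were chosen with earlier results of these data known. Values per sample are given for members named in advance for their role, for members that passed with or without the block, for members whose samples did not overlap and for the 3 largest differences. A few others were added after their values were seen. From further lists the 3 genes with the smallest p are named. Intervals are 95% intervals of limma.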

Additional observations from a re-analysis of the deposited data

How the results depend on the processing

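Of 25 alternatives, 2 changed the count of imprinted genes that passed limma's test. With pool number as a block (replicate block) the count was 1, the paternally expressed Sfmbt2. With the 4 and 4 arrays as separate samples it was 2, Meg3 (limma adjusted p = 0.0494) and Sfmbt2 (0.00158), that is 1 maternally and 1 paternally expressed gene, and 1 further imprinted gene, Atp10a, passed. That alternative counts pools 3 and 4, which barely differ, as separate samples, and called 257 genes of the array. The count was 0 to 0 over the settings that left out a replicate, for the imprinted genes, the maternally and the paternally expressed ones, the further imprinted genes, the imprint factors and the IGF axis. Over the whole array limma called 10 genes, 34 with the block and 0 to 257 over the 25 alternatives. Beside Sfmbt2, the block changed 1 call among the marker lists, that of Pdzk1, and none in the further imprinted genes, the imprint factors and the IGF axis. Sfmbt2 ran from 0.78 to 1.41 with the same sign in all 25, and its adjusted p from 0.00158 to 0.762, the highest with centring on spike-in spots. Meg3 ran from 0.26 (mean over its probes) to 0.63. Airn, Cd81, Igf2r, Kcnq1ot1, Magel2, Usp29 and Zim1 also kept their sign in all 25, whereas H19, Dlk1, Grb10 and Plagl1 changed it in 7, 6, 8 and 7. Their sizes moved, for the dim Usp29 from 0.07 to 0.53, Magel2 from 0.02 to 0.41 and Zim1 from 0.16 to 0.59. The brighter Airn ran from 0.11 to 0.35, Cd81 from 0.08 to 0.37 and Igf2r from 0.14 to 0.43. The median of the paternally expressed genes, -0.04 as reported, was 0.10 without mutant pool 1 and 0.10 without wildtype pool 2.

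Having 3 samples a genotype limits these results, and small differences were not detectable at this spread.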
